A study of Homo sapiens with 36 samples.

Results

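The replication-dependent histone genes were taken as the 74 protein-coding genes of GENCODE 44 (GRCh38) whose symbol starts with H1-, H2AC, H2BC, H3C or H4C followed by a number, of 20033 protein-coding genes in all. They comprise 10 linker histone H1, 17 H2A, 19 H2B, 13 H3 and 15 H4 genes, and 55 of them lie on chromosome 6 and 13 on chromosome 1. The symbol rule also takes in linker histone genes that are not of the replication-dependent kind, such as H1-7, H1-8 and H1-10. The data were 18 lists of PAR-CLIP clusters from HEK293 Flp-In T-REx cells, a human embryonic kidney line. In PAR-CLIP, the nucleoside 4-thiouridine (4SU) is built into RNA, UV light links it to bound protein, and stretches of RNA covered by crosslinked reads are called as clusters. The cells were a line with doxycycline-inducible FLAG-SCAF4, a line with doxycycline-inducible FLAG-SCAF8, and their parental line, which carries no FLAG tag. FLAG immunoprecipitates of these lines are called SCAF4 IP, SCAF8 IP and control IP, and each IP has an input, RNA of the same extract taken before the pull-out, with 3 replicates in each of the 6 groups. All lines were given 100 μM 4SU overnight and then 500 μM for 2 h before irradiation at 365 nm (2000 J/m2). Per the labels, 100 ng/mL doxycycline induced the tagged protein in both FLAG lines, while for the parental line no doxycycline is named. The paper's methods instead name doxycycline overnight for all lines, parental cells included, at 1 μg/mL. The study describes the replicates as biological, and p-values measure the spread between these lists.

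Of 278185 clusters in the 18 lists, 1012 had their midpoint in a histone gene or in the 500 nt after it on the same strand, and 52 of the 74 genes held at least 1. The number of clusters and the number per 1000 clusters of the list were the measures available, because the lists carry no reads and their depth is unknown. Lists were longer for SCAF4 and SCAF8 IP (18287 to 54404 clusters) than for their inputs (4793 to 11715) and for control IP (1621 to 9638). Histone RNA levels were not measured, so the amount of RNA and the crosslinking per RNA molecule cannot be told apart.

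Replication-dependent histone genes encode the core and linker histones made in S phase to package newly copied DNA. Most have no intron, and their mRNAs are the main class of animal mRNAs that end without a polyA tail. Their 3′ end is formed by a cut shortly after a stem-loop, which the stem-loop binding protein SLBP recognises, with the U7 snRNP guiding the cleavage complex. SCAF4 and SCAF8 are RNA-binding proteins that contact the C-terminal domain of RNA polymerase II, and the study addressed their part in the choice of polyA sites.

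The stem-loop is shown first, because the clusters were placed relative to it. It was searched as GGNNCTTNNNAGNNCC (N, any base) on the transcribed strand within 100 nt after the stop codon of the MANE Select transcript, and 69 of the 74 histone genes held a match. The same search gave a match in 11 of 18987 other protein-coding genes (0.0579%). On the opposite strand, the pattern was met in 10 histone genes and 13 other genes. Stem-loops are shown for 8 genes in which clusters of 3 to 6 of the 6 SCAF4 and SCAF8 IP lists covered all 16 bases. H4C5 and H3C10 also reached 3 of these lists, but fewer of all 18, and are not shown. The sequences below are read 5′ to 3′ on the transcribed strand of GRCh38, with the loop in capitals and T for U.
H4C14, chr1:149833032-149833047, plus strand: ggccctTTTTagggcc
H4C15, chr1:149860769-149860784, minus strand: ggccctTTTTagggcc
H4C3, chr6:26104317-26104332, plus strand: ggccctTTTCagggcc
H3C13, chr1:149813228-149813243, minus strand: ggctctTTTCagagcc
H3C15, chr1:149853105-149853120, plus strand: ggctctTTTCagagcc
H2AC19, chr1:149851574-149851589, plus strand: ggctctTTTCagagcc
H2AC12, chr6:27147546-27147561, plus strand: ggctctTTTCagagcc
H2AC18, chr1:149842223-149842238, minus strand: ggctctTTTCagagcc

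The sequence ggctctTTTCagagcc was the most common and was shared by 40 genes of the H1, H2A, H2B and H3 families. H4 genes had their own stem, ggccct paired with agggcc, and 10 of the 15 H4 genes held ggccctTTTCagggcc. The form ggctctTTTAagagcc was found in 9 genes, of which 5 were H2B genes. Genes without a match included H1-7, H1-8, H1-10 and H2BC12L. The stem-loop started 23 to 68 nt after the stop codon (median 36), and the annotated mRNA ended 5 nt after it in 50 of 69 genes.

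Histone genes held clusters in nearly every kind of list, with and without a FLAG-tagged protein. The 3 SCAF4 IP lists held 66, 90 and 76 clusters in histone genes and the 3 SCAF8 IP lists 63, 50 and 68. Inputs of the FLAG-SCAF4 line held 69, 54 and 43, inputs of the FLAG-SCAF8 line 48, 58 and 58, and inputs of the parental line 57, 48 and 51. Control IP lists held 51, 41 and 21. SCAF IP and input lists thus overlapped in number, and the lowest list was a control IP list.

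Scaled to list length the order was different. SCAF4 IP held 3.48, 1.65 and 2.24 histone clusters per 1000 clusters, and SCAF8 IP 2.50, 2.73 and 1.64. Inputs of the FLAG-SCAF4 line held 5.89, 10.6 and 8.97 per 1000, inputs of the FLAG-SCAF8 line 5.25, 5.60 and 6.44, and those of the parental line 4.56, 10.5 and 10.0. Control IP held 5.29, 17.7 and 13.0 per 1000. All 6 SCAF IP lists lay below all 12 other lists. The mean log2 ratio of an IP to its own input was -1.59 ± 0.74 (SD, n = 6 pairs) per 1000 clusters, and 0.32 ± 0.42 for the number of clusters, so that the sign depended on the scale.

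**Figure D1:**
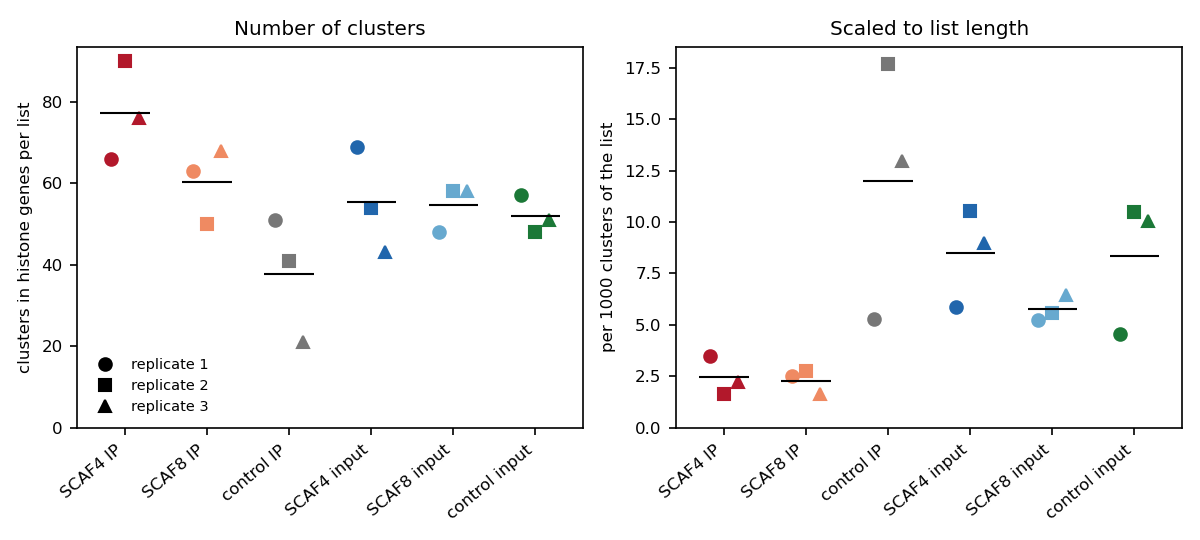
Clusters in histone genes for each of the 18 lists, as a number (left panel) and per 1000 clusters of the list (right panel), by group. Each symbol is 1 list, its shape gives the replicate, and the line is the mean of 3 lists. SCAF IP lists overlap with inputs on the left (50 to 90 against 43 to 69) and lie below every other list on the right (1.64 to 3.48 per 1000).

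Clusters of histone genes were longer than those of other genes. Their median length was 160 to 311 nt across the 18 lists, against 125 to 160 nt for all clusters of a list. Most histone genes held a single cluster in a list where they held any: leaving aside H4C14, H4C15 and H1-10, 49 genes in 18 lists gave 882 combinations, of which 261 had 0 clusters, 506 had 1, 110 had 2 and 5 had 3. The median length of a histone gene was 509 nt.

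Presence across lists was high for the histone genes. A cluster in all 18 lists was found for 14 of the 52 histone genes with any cluster, against 3.75% of the 9476 protein-coding genes with a cluster in any list. These were H4C14, H4C15, H4C2, H4C5, H4C8 and H4C3 of the H4 family, H3C15, H3C14 and H3C2 of the H3 family, H2AC19 and H2AC18, H2BC12 and H2BC18, and the linker histone gene H1-4. A cluster in all 9 input lists was held by 20 of 52 histone genes, against 7.66% of genes. By contrast, a cluster in at least 2 SCAF IP lists and in 0 input and control IP lists was found for 24.3% of genes and for 0 of the 52 histone genes.

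Control IP, which holds RNA recovered without a tagged protein, covered 44 of the 52 histone genes. Clusters in at least 2 of the 3 control IP lists were found for 24 of 52 histone genes, against 12.8% of genes. The same count was 45 in SCAF4 IP (73.7% of genes), 41 in SCAF8 IP (63.2%), 36 in SCAF4 input (21.9%), 42 in SCAF8 input (30.4%) and 31 in parental input (21.4%). The 14 genes present in all lists and H2AC13 had a cluster in all 3 control IP lists. H1-2, H2BC4, H2AC6, H2AC11, H2BC21, H3C13, H1-10, H2AC17 and H2AC21 had one in 2 of them. For a further 20 genes there was 1 such list, among them H2BC5, H4C1, H2BC11, H2AC20, H2AC7, H2AC12, H3C4, H2BC26, H3C10, H2AC25, H2BC12L, H4C4, H2BC17, H4C11, H2BC15, H2BC13, H2AC4, H4C16 and H2AC16. The 8 genes with a cluster elsewhere and 0 in control IP were H4C12, H2AC14, H2AC15, H2AC8, H2BC7, H3C1, H1-3 and H2BC6.

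**Figure D2:**
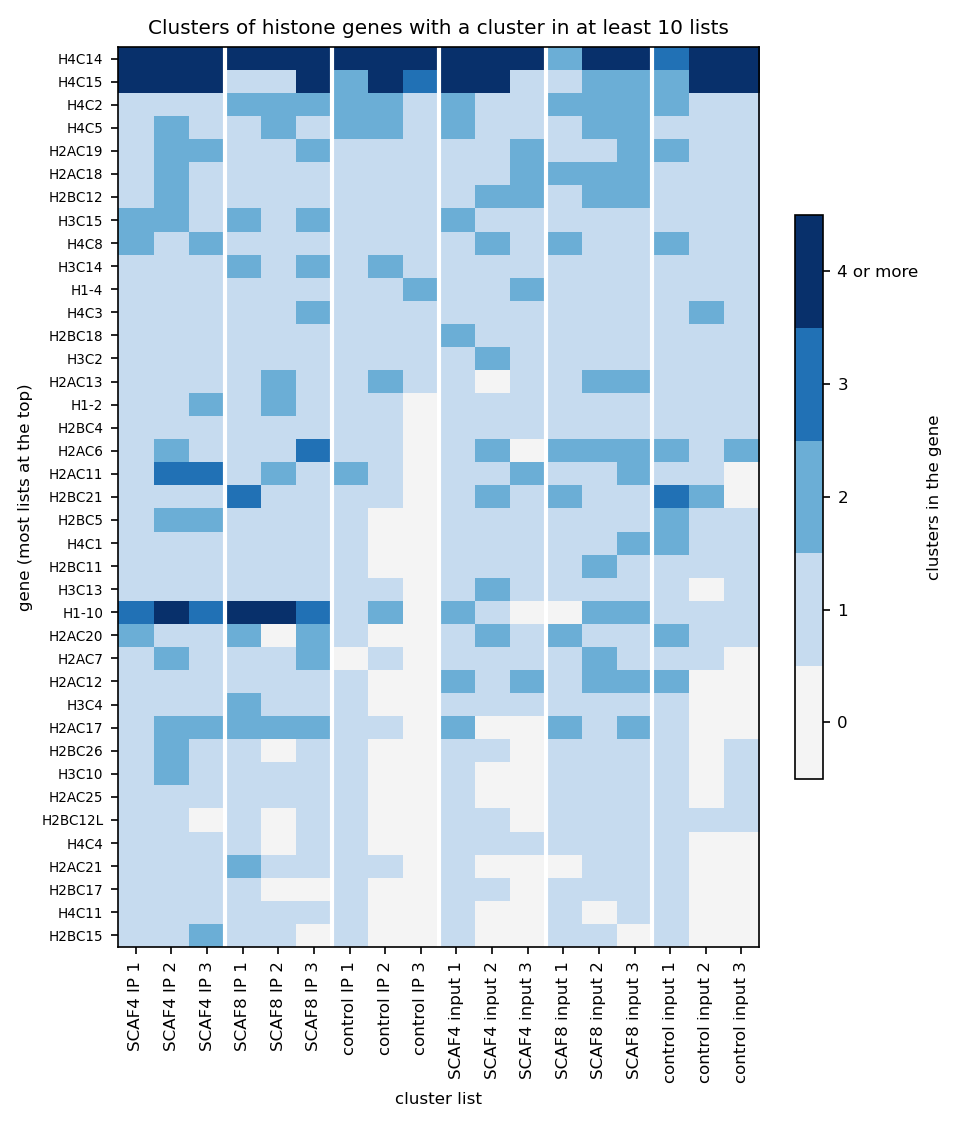
Number of clusters of each histone gene with clusters in at least 10 lists (rows, most lists at the top) in each of the 18 lists (columns), from 0 (pale) to 4 or more (dark). The 14 genes at the top are coloured in every column, including the 3 control IP columns, most cells hold 1 cluster, and H1-10 is darker in the 6 SCAF IP columns than elsewhere.

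The remaining 22 genes held 0 clusters in all 18 lists. They included 5 of the 10 H1 genes, among them H1-1, H1-5 and the germ-cell genes H1-6, H1-7 and H1-8, 6 of 19 H2B genes, 6 of 13 H3 genes, 4 of 15 H4 genes and 1 of 17 H2A genes. The annotated body of H3C12 reaches into H2AC17 on the same strand, and the 21 clusters found there lay in the H2AC17 mRNA and were counted for H2AC17 alone. 4SU crosslinks where RNA holds U, and the mRNAs of the 22 genes held a median of 99.5 T, against 87.0 in the 52 genes with a cluster. For H1-8, which has 5 exons, the introns were counted too. The part of U content or of RNA amount in the absence of clusters was not tested.

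Whether single histone genes were enriched was tested against the inputs of the same lines, with 6 SCAF4 and SCAF8 IP lists against 6 inputs, an exact permutation test for each gene and Benjamini-Hochberg adjustment over 8195 genes. Per 1000 clusters, 0 of 48 histone genes tested were higher in the IPs at an adjusted p under 0.05, against 4.34% of genes, and 0 of 48 were so at an unadjusted p under 0.05, against 17.9% of genes. Lower in the IPs were 18 of 48 histone genes, against 2.38% of genes, and 30 of 48 at an unadjusted p under 0.05, against 6.5% of genes. The mean was lower in the IPs for 47 of 48 histone genes, against 28.4% of genes, and higher for 1, against 71.6%. Genes were tested with a cluster in at least 2 of the lists compared, so those with clusters in IP lists alone could only be higher. Of 9476 genes, 2298 had a cluster in at least 2 SCAF IP lists and in 0 input and control IP lists, against 0 of 52 histone genes. The shares over all genes, here and below, depend in part on such genes.

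The 18 genes were spread over the families. They were H4C1, H4C2, H4C3 and H4C4, H3C2, H3C4, H3C13 and H3C14, H2AC7, H2AC12, H2AC18 and H2AC19, H2BC4, H2BC5, H2BC11, H2BC12 and H2BC18, and H1-4. Their mean in the inputs was 0.134 to 0.236 clusters per 1000, and in the IPs 0.0274 to 0.0562, so that inputs were 2.85 to 5.97 times higher (median 4.10). For each of the 18 the groups did not overlap, with an adjusted p of 0.0322 at the smallest p that 6 lists against 6 allow (two-sided exact permutation test, p = 0.00216). Every IP list was longer than every one of these inputs, so a gene with the same number of clusters in each list would give this outcome too.

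H2BC12, an H2B gene, is one of the 18, with a ratio of 5.97, as had H2AC12. It held 0.0527, 0.0368 and 0.0294 clusters per 1000 in SCAF4 IP, 0.0397, 0.0547 and 0.0241 in SCAF8 IP, 0.0854, 0.391 and 0.417 in SCAF4 inputs, and 0.109, 0.193 and 0.222 in SCAF8 inputs. All inputs were above all IPs, with means of 0.236 ± 0.140 and 0.0396 ± 0.0122 per 1000 (SD, n = 6). In numbers, however, H2BC12 had 1, 2, 1, 1, 1 and 1 clusters in the IPs and 1, 2, 2, 1, 2 and 2 in the inputs. H2BC4 shows the same in the simplest form, with exactly 1 cluster in each of these 12 lists and still an adjusted p of 0.0322 (exact permutation test) per 1000 clusters, as the same number was divided by longer lists. H4C2 held 1, 1 and 1 clusters in SCAF4 IP, 2, 2 and 2 in SCAF8 IP, 2, 1 and 1 in SCAF4 inputs and 2, 2 and 2 in SCAF8 inputs.

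Without scaling, the picture over all genes and the picture over histone genes moved apart. The mean number of clusters was higher in the IPs for 96.9% of the 8195 genes, a share raised by the filter named above, and for 23 of 48 histone genes. It was lower for 17 histone genes, against 1.03% of genes, and equal for 8. Higher at an adjusted p under 0.05 (exact permutation test) were 32.9% of genes and 1 of 48 histone genes, H1-10. Lower were 0 genes of either kind, also at an unadjusted p under 0.05. For the 18 genes lower per 1000 clusters, the mean difference in number was -0.67 to 0.33 clusters (median -0.17), higher in 6, lower in 11 and equal in 1. The lower values of these genes were thus values relative to the rest of the list.

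The nt covered by clusters, also without scaling, gave an intermediate result. The mean covered length was higher in the IPs for 35 of 48 histone genes and lower for 13, against 98% and 1.99% of all genes. The median difference was 33.8 nt over histone genes and 209 nt over all genes tested. Higher at an adjusted p under 0.05 (exact permutation test) were 2 of 48 histone genes, H1-10 and H2BC5, against 40.1% of genes. H2BC5 was covered over 441, 588 and 407 nt in SCAF4 IP, 468, 298 and 419 nt in SCAF8 IP, 361, 157 and 299 nt in SCAF4 inputs and 301, 328 and 346 nt in SCAF8 inputs (adjusted p = 0.0393, exact permutation test). These groups overlapped, as the SCAF8 IP list of replicate 2 lay below all inputs but 1. H2BC5 was thus lower per 1000 clusters and higher in covered nt.

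H1-10 stood apart from the other 47 histone genes tested. It encodes a linker histone variant, spans chr3:129314771-129316286 on the minus strand as a single exon, has no stem-loop match and belongs to the genes with polyadenylated mRNA. It held 3, 4 and 3 clusters in SCAF4 IP, 4, 4 and 3 in SCAF8 IP, 2, 1 and 0 in SCAF4 inputs and 0, 2 and 2 in SCAF8 inputs. Control IP had 1, 2 and 0 and the parental inputs 1, 1 and 1. Every SCAF IP list was above every other list, and the IP mean exceeded that of the own inputs by 2.33 clusters (adjusted p = 0.0189, exact permutation test). Covered length was 723 ± 91.1 nt in the IPs and 213 ± 211 nt in the inputs (SD, n = 6). Per 1000 clusters, H1-10 did not differ by this test, with 0.128 ± 0.0595 in the IPs and 0.130 ± 0.102 in the inputs (adjusted p = 1, exact permutation test).

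With the replicate number as a block, where each IP was paired with its own input by sign flips, 0 of 8195 genes and 0 histone genes passed, because 6 pairs allow no p below 0.03125 (smallest adjusted p = 0.227, exact sign-flip permutation). At an unadjusted p under 0.05, 22 of 48 histone genes were lower in this paired test, against 4.58% of genes, and 0 higher, against 9.18%. Leaving out any replicate also left 0 genes, and so did dropping the lower-scoring clusters of each list.

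Against control IP, 6 lists were set against 3, and 0 genes passed: the smallest adjusted p was 0.111 per 1000 clusters and 0.166 for the number (exact permutation test, 84 splits). At an unadjusted p under 0.05, 15 of 46 histone genes tested were lower in SCAF IP per 1000 clusters, against 3.98% of genes, and 1 was higher, against 15.6% of genes. All SCAF IP lists lay below all control IP lists for 10 histone genes, against 2.55% of genes. The mean per 1000 clusters was higher in SCAF IP for 13 of 46, against 81.4% of genes, whereas the mean number was higher for 37, against 99% of genes, and lower for 5, against 0.483%. The histone gene that was higher was H4C12, with 1, 1 and 2 clusters in SCAF4 IP, 1, 1 and 1 in SCAF8 IP and 0, 0 and 0 in control IP (unadjusted p = 0.0238, exact permutation test). Only 6.98% of the 30-nt words of the H4C12 mRNA occur at a single place in the genome.

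SCAF4 IP and SCAF8 IP lists overlapped at most histone genes, and 3 lists against 3 cannot reach a two-sided p below 0.1. Per 1000 clusters, SCAF4 IP lists lay above all SCAF8 IP lists for 2 of 46 histone genes, H4C14 and H4C15, against 9.01% of genes, and below them for 0, against 5.1%. In number, 0 histone genes were higher in SCAF4 IP, against 3.92% of genes, and H4C2 alone was lower, against 0.757%.

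H4C14 and H4C15 were the only histone genes with many clusters, and they are near-identical copies on opposite strands of chromosome 1. Neither mRNA has a 30-nt word that occurs once in the genome, which makes the assignment of mRNA clusters to one of them uncertain, and the pair is therefore given as a sum. The stretch after the mRNA was not tested for words found once in the genome. All 30-nt words were, however, shared with another histone gene in 138 of 163 clusters of H4C14 and in 61 of 74 of H4C15. Only 19 clusters of each gene had their midpoint in the mRNA, so separate counts after it are uncertain too. Both encode histone H4 in a mRNA of 396 nt, but annotated isoforms of 2 exons, marked as targets of nonsense-mediated decay, run on for up to 6720 nt (H4C14) and 6724 nt (H4C15) after the stem-loop. The pair held 16, 31 and 25 clusters in SCAF4 IP and 6, 7 and 18 in SCAF8 IP. It held 17, 15 and 10 in inputs of the FLAG-SCAF4 line and 3, 7 and 7 in those of the FLAG-SCAF8 line. Control IP had 6, 13 and 7 and the parental inputs 5, 21 and 23.

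Per 1000 clusters, the pair stood at 0.843, 0.570 and 0.736 in SCAF4 IP, at 0.238, 0.383 and 0.434 in SCAF8 IP, at 1.45, 2.93 and 2.09 in SCAF4 inputs, and at 0.328, 0.676 and 0.777 in SCAF8 inputs. Values were higher in the FLAG-SCAF4 line than in the FLAG-SCAF8 line in IP and in input alike. Replicates 2 and 3 of the parental line reached 4.60 and 4.53 in input and 5.62 and 4.32 in control IP, while replicate 1 gave 0.400 and 0.623.

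Most clusters of the pair lay after the stem-loop. Of 163 clusters of H4C14, 19 had their midpoint in the annotated mRNA and 144 after it, 17 of them within 500 nt. Of 74 clusters of H4C15, 19 lay in the mRNA and 55 after it. All groups had such clusters, though the copy they come from is uncertain. As placed at H4C14, there were 41 in SCAF4 IP, 20 in SCAF8 IP, 14 in control IP, 29 in SCAF4 inputs, 9 in SCAF8 inputs and 31 in the parental inputs. The annotated end of the long isoform was covered by a cluster in 12 lists for H4C14 and in 7 for H4C15. Clusters that started in the mRNA, wherever their midpoint lay, and ended 114 to 181 nt past the stem-loop were seen in 13 lists for H4C14 and in 10 for H4C15 (in 1 of these starting at the last base of the mRNA), control IP lists included (3 and 1).

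**Figure D3:**
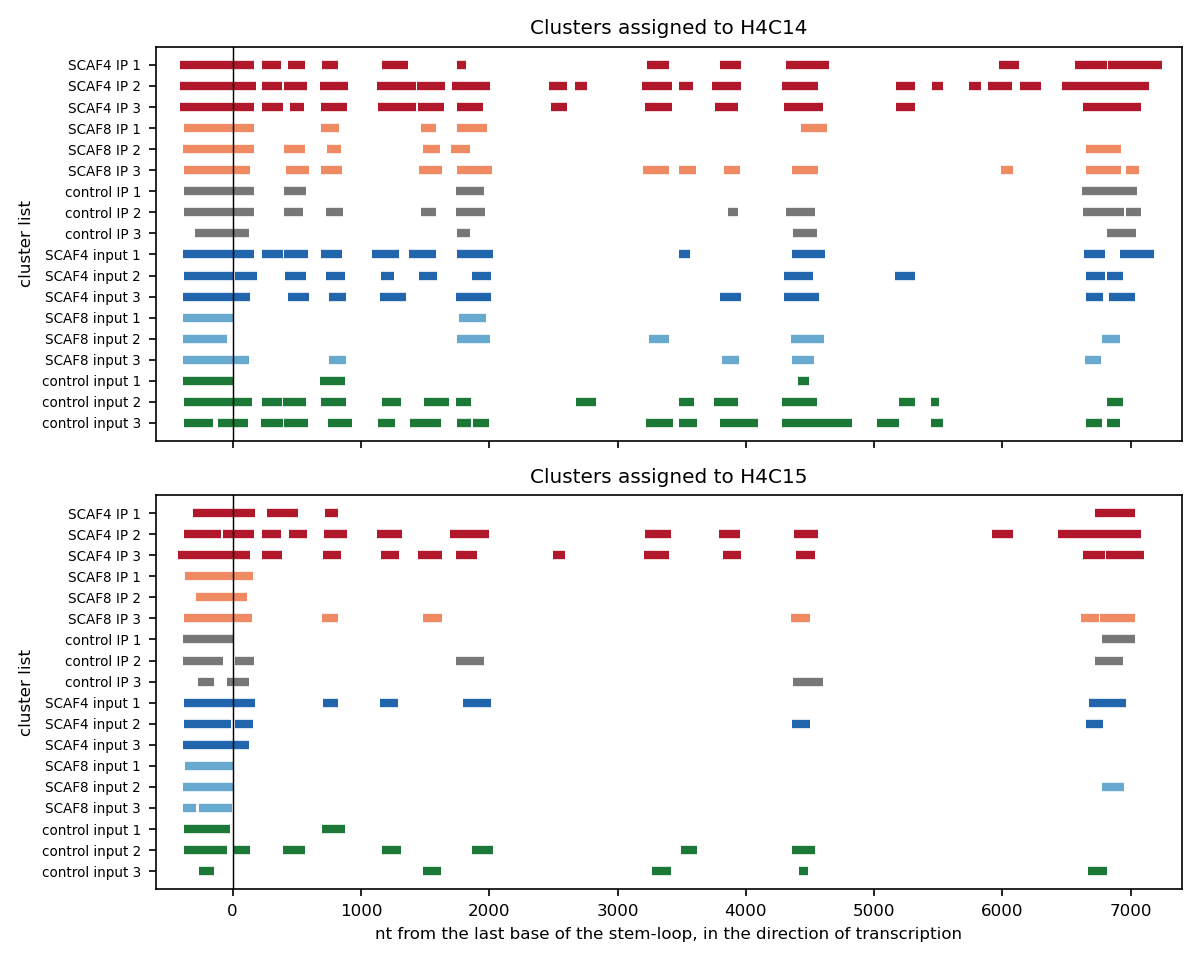
Clusters of H4C14 (top) and H4C15 (bottom) in each of the 18 lists (rows, coloured by group), against distance in nt from the last base of the stem-loop (line at 0). Clusters reach up to 7243 nt past the stem-loop and stack at like distances in IP, input and control IP lists.

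Elsewhere few clusters extended past the stem-loop. Distances are counted from its last base, with negative values for positions before it, and 748 clusters of 48 stem-loop genes, H4C14 and H4C15 included, had their midpoint in the annotated mRNA. Of these, 136 had their last nt 0 to 5 nt after the stem-loop and 125 had it 1 to 5 nt before, so that 294 (39.3%) ended within 10 nt of that base. This window of 10 nt was chosen after the positions had been seen. Ends further on were few: 35 clusters (4.68%) ended more than 10 nt past the stem-loop, and 20 of these belonged to H4C14 and H4C15. After the mRNA end, the other 67 stem-loop genes together had 7 clusters in the 18 lists, in H2AC11, H2BC5, H3C10, H4C12 and H4C8, and all 7 were in SCAF4 IP lists of replicates 2 and 3. These are long lists, of 54404 and 33962 clusters, against at most 12493 in input and control IP lists. The SCAF8 IP list of replicate 3, with 41502, had 0 such clusters. The cluster of H2BC5 started 12964 nt and that of H4C8 3489 nt after the stem-loop.

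**Figure D4:**
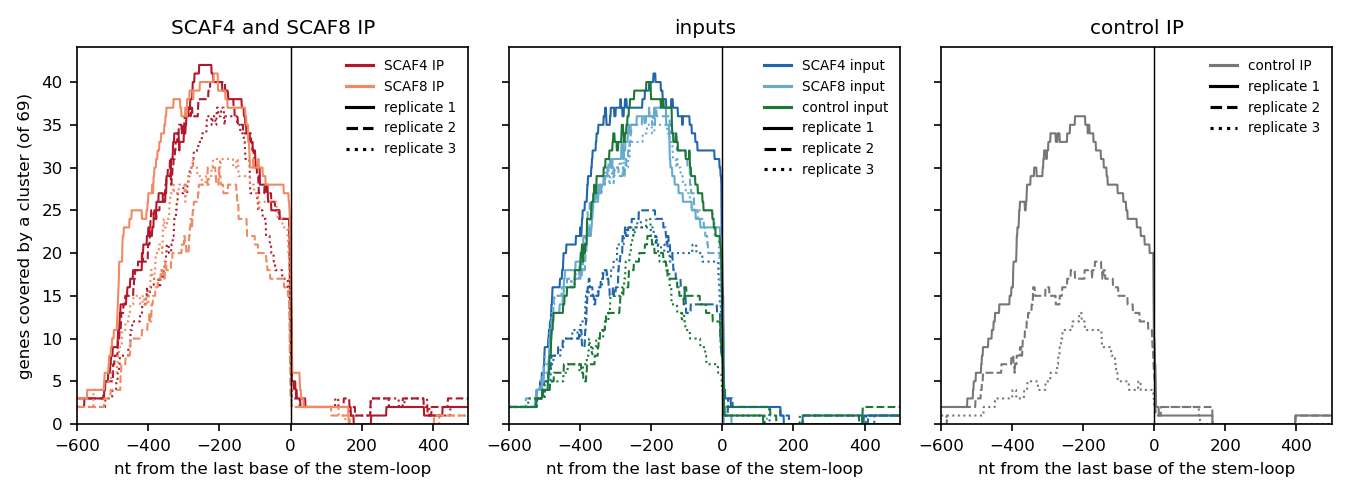
Number of stem-loop histone genes (of 69) covered by a cluster at each distance in nt from the last base of the stem-loop (line at 0), 1 line per list, for SCAF IP, input and control IP. Coverage is highest between positions -275 and -167, with 13 to 42 genes, and 0 to 6 genes are covered 6 nt after it in every list.

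The drop at the stem-loop was seen in IP and input lists. Covered genes numbered 16 to 27 in SCAF IP lists at the first base of the stem-loop (15 nt before its last), 3 to 21 at the last base and 2 to 6 at 6 nt after it. In the inputs of the same lines these were 13 to 31, 8 to 17 and 0 to 4, and in control IP 4 to 21, 2 to 10 and 1 to 2. The share of mRNA clusters ending within 10 nt was 38.2% ± 5.09 in SCAF IP (SD, n = 6 lists), 43.2% ± 8.96 in the own inputs (n = 6) and 29.7% ± 15.1 in control IP (n = 3). The median midpoint per list lay at -239.5 to -196.5 nt from the stem-loop end in SCAF IP and at -238 to -198 nt in the own inputs, with overlapping ranges. Ends more than 10 nt past the stem-loop made up 4.26% to 11.5% of mRNA clusters in SCAF IP and 0% to 5.71% in the own inputs. Without H4C14 and H4C15 these were 3, 2 and 1 clusters in SCAF4 IP, 4, 0 and 0 in SCAF8 IP, 1, 1 and 0 in SCAF4 inputs and 1, 0 and 0 in SCAF8 inputs.

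Cluster ends differed in position between histone families, and the family medians were close in SCAF IP and input. The last nt had a median of 2 nt before the stem-loop end for H3 genes and of 3 nt before it for H4 genes, and 66.4% and 56.1% of their clusters ended within 10 nt. For H2A genes the share was 40.4%. H2B clusters ended earlier, at a median of 148 nt before the stem-loop end, and 8.54% of 164 reached within 10 nt. The H1 genes have longer mRNAs, and their 40 clusters ended at a median of -352.5 nt. The H2B median was -147 nt in SCAF IP, -148 nt in the inputs and -158 nt in control IP, and that of H4 genes -2, -4 and -3 nt. 4SU is crosslinked at T: the 100 nt before the stem-loop held a median of 14% T in the H2B genes with a cluster, 15.5% in H2A, 18% in H3 and 22% in H4 genes. The part of this composition in the family difference was not tested.

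**Figure D5:**
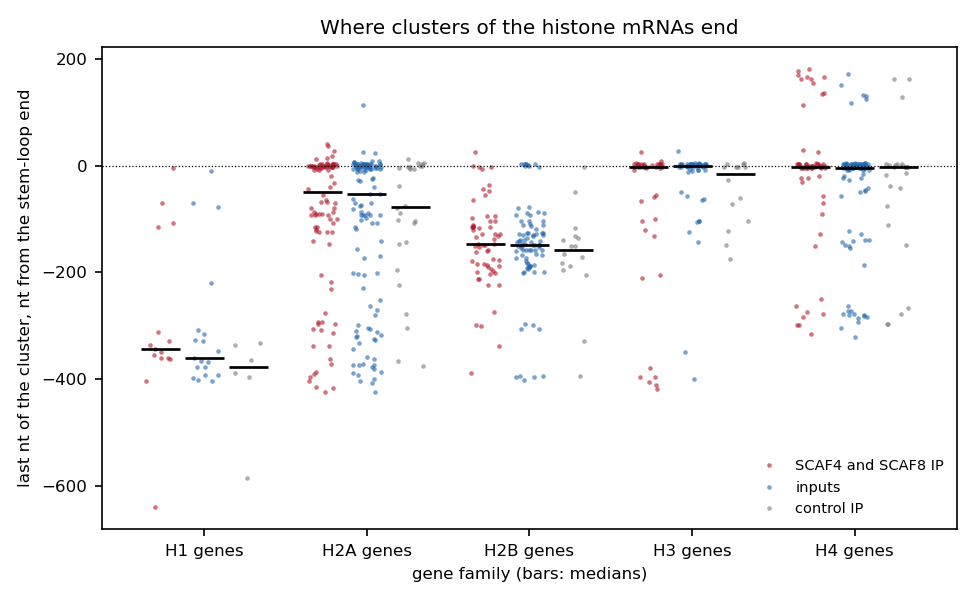
Last nt of each mRNA cluster relative to the last base of the stem-loop (dotted line at 0), by gene family and kind of list, with 1 point per cluster and a bar at the median. H3 and H4 medians lie at or near the stem-loop end and H2B medians 147 and 148 nt before it, in SCAF IP and in input.

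Single genes showed both ends of this range. H4C3, with the stem-loop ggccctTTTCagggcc shown above and an mRNA whose 30-nt words each occur once in the genome, had 17 of 20 clusters ending within 10 nt, and its stem-loop was covered whole in 4 SCAF IP, 7 input and 2 control IP lists. H3C13, with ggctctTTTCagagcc, had 14 of 17, and its stem-loop was covered whole in 6 SCAF IP, 7 input and 2 control IP lists. H2BC12 and H2BC4, both with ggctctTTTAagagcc, had 0 of 23 and 1 of 17 clusters ending within 10 nt. By stem-loop sequence, 68.5% of 143 clusters at genes with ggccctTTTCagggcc, 37.3% of 421 at genes with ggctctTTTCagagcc and 11.1% of 90 at genes with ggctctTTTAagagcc ended there, and the last group consists mainly of H2B genes. At the H4 genes H4C14, H4C15 and H4C12, with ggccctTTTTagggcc, 17.4% of 46 clusters did so. Here, however, 58.7% of the clusters covered the whole stem-loop, and 13 of H4C14 and 7 of H4C15 ended more than 10 nt past it.

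In an adaptation of the study's removal of background, 0 merged histone regions were left. Unlike in the study's methods, clusters were merged first, input lists were counted in place of input clusters, and the density was that of merged input regions. Overlapping clusters of the 6 SCAF IP lists were merged, and 75 regions in 46 histone genes held clusters of at least 2 lists, among 36642 regions in protein-coding genes. Regions that met clusters in more than 1 input list (of 9) were dropped, which left 10 histone regions in 6 genes (13.3%), against 73.4% of regions in protein-coding genes. The 10 were in H4C14, H4C15, H3C14, H1-10, H2AC11 and H4C12. Dropping genes whose density of merged input regions, counted over the gene and 2 kb on either side, reached 1 per 10 kb then left 0, against 41.2% of all. A gene of the median histone length reaches this limit with a single input region, since 1 region amounts to 2.22 per 10 kb. Overlap with control IP alone would have removed 53 of the 75 histone regions (70.7%), against 20.2% of all.

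Shared sequence limits how far clusters can be tied to a gene. All 30-nt words were shared with another histone gene in 313 of 1012 clusters (30.9%), and no word was shared in 195 (19.3%). Of the 313, H4C14 gave 138 and H4C15 61. Pooled over lists, the share with all words shared was close in SCAF IP (31.2% of 413), input (30.7% of 486) and control IP (31.0% of 113). Single lists varied, from 20.6% to 38.9% in SCAF IP, 19.0% to 52.1% in input and 15.7% to 52.4% in control IP. H2AC18 and H2AC19, H3C14 and H3C15, and H4C14 and H4C15 are pairs whose mRNAs hold no 30-nt word found once in the genome. The aligner placed each read at 1 best position, so their separate values are uncertain. The 14 genes present in all lists had a median of 20.8% unique words in the mRNA, against 97% for the 22 genes with 0 clusters, and 6 of the 14, among them H4C3, H4C5, H4C8 and H1-4, had at least 80%.

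Genes that act on the ends of histone mRNA were compared from a separate list. All 17 of a list of genes for 3′ processing and decay of histone mRNA held clusters, and their mean number was higher in the SCAF IPs than in the own inputs in 17 of 17, against 96.9% of genes, passing at an adjusted p under 0.05 (exact permutation test) in 7, against 32.9% of genes. Per 1000 clusters, 1 passed as higher, against 4.34% of genes, 13 had a higher mean, against 71.6%, and 4 a lower mean, against 28.4%, so that these shares were near those over all genes. CASP8AP2 (FLASH), a partner of the U7 snRNP, held 14, 18 and 16 clusters in SCAF4 IP, 9, 9 and 17 in SCAF8 IP, 8, 2 and 2 in SCAF4 inputs and 5, 9 and 4 in SCAF8 inputs. SLBP held 2, 7 and 3 in SCAF4 IP, 3, 1 and 5 in SCAF8 IP, 0, 1 and 0 in SCAF4 inputs and 0, 2 and 1 in SCAF8 inputs. UPF1, a helicase of histone mRNA decay, held 3, 20 and 11, then 2, 7 and 14, against 1, 0 and 1, then 0, 1 and 1 in the same order. Per 1000 clusters, the means in the IPs and inputs were 0.466 and 0.558 for CASP8AP2, 0.103 and 0.0833 for SLBP, and 0.275 and 0.0836 for UPF1. The gene that passed as higher per 1000 clusters was TUT7, with means of 0.0710 and 0.

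A list of replication-independent histone genes, drawn up by name, was compared in the same way. Of 14 listed, 12 were found by symbol among the annotated protein-coding genes, and all 12 held clusters. H2BU1 and H4-16 matched no such symbol, so their clusters were not counted under these names. Of the 12, 11 were tested, including H1-10, which is also among the histone genes above. In number, 11 of 11 had a higher mean in the SCAF IPs, against 96.9% of genes. Of these, 1 passed the test, against 32.9% of genes, and it was H1-10, already counted above. Per 1000 clusters, 11 of 11 had a lower mean, against 28.4% of genes, and 3 passed as lower, against 2.38%. H3-3B, which encodes H3.3, held 4, 5 and 3 clusters in SCAF4 IP, 7, 5 and 5 in SCAF8 IP, 5, 4 and 2 in SCAF4 inputs and 5, 7 and 5 in SCAF8 inputs, so that its groups overlapped in number, and it was 1 of the 3 that passed as lower per 1000 clusters.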

How the data were processed

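The members and gene lists were chosen with earlier results of these data known. The authors trimmed reads (100 nt in replicate 1, 75 nt in replicates 2 and 3), aligned them with Bowtie2 2.2.9 to GRCh38, combined soluble and chromatin libraries (36 libraries, 18 lists) and called clusters with PARalyzer. The deposited lists give the position and a score of each cluster, whose meaning is not given in the sources used here, and no read counts, so the depth is unknown. Clusters were assigned by midpoint and strand to GENCODE 44 genes. Genes with a cluster in at least 2 of the lists compared were tested by a two-sided exact permutation test with Benjamini-Hochberg adjustment. The software was numpy 2.4.6 and scipy 1.17.1 under Python 3.11.15, and sequences were read with pysam 0.24.0. The test was checked on counts simulated in proportion to list length, without added spread between replicates. This check does not cover genes that hold like numbers of clusters in lists of unlike length. Genes named were those in most lists, those passing a test, and those with a cluster in control IP or in a merged region. An IP and its input come from the same extract, so replicate numbers pair them: over 8262 genes, deviations from the group mean correlated at -0.08 to 0.55 within the 6 pairs (median 0.20), and at -0.42 to 0.27 between other lists (12 pairs). Alternatives were scaling, list minimum, score, gene window, replicate block and leaving out each replicate. Values of 1 histone gene are not reported here.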

Additional observations from a re-analysis of the deposited data

Results flagged for a closer look

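H1-4 and H2AC12 each had 1 input list far above the other 5 of the FLAG-SCAF4 and FLAG-SCAF8 lines: the SCAF4 input of replicate 3 held 0.417 clusters per 1000 for both genes. The value stands for 2 clusters in a list of 4793. Of 56 groups of lists examined 2 were so marked, and chance marks about 1 in 20.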

How the results depend on the processing

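Without scaling, the mean log2 ratio of histone clusters in IP to own input turned to 0.32. Over all genes, 356 were higher and 195 lower per 1000 clusters. By number these were 2694 and 0, and by nt covered 3288 and 0. Keeping clusters at or above the median score gave 0 and 0, as did the replicate block with or without scaling and leaving out each replicate (0 to 0). At an unadjusted p under 0.05 the score setting gave 611 and 207, the block 752 and 375, and the block without scaling 1727 and 0. The 18 histone genes lower became 0 under each of these settings, and the 0 higher became 1 by number and 2 by nt covered. Leaving out replicates limits the smallest exact permutation p to 0.0286. Histone regions left after all removal steps were 10 without the density step and 0 to 2 on leaving out replicates. The mean of the median midpoints moved from -215 nt to -299 nt from the annotated gene end and to -259 nt with the score setting.
By number, with or without the replicate block, IP minus input turned positive for H3C14 and H2BC5 (0.33 clusters), H2AC19, H4C3, H3C4 and H2AC7 (0.17) and H1-10 (2.33). By nt covered it turned positive for H3C13 (19.0 nt), H3C14 (45.5), H2AC19 (39.2), H4C1 (20.7), H4C2 (32.2), H4C3 (15.5), H1-4 (17.3), H2BC5 (138.2), H4C4 (11), H2AC7 (41.2), H2BC12 (7.33), H2AC12 (57.5) and H1-10 (510.3). Per 1000 clusters it did so for H3C4 with the score setting (0.0230) and for H1-10 without replicate 2 or 3 (range over the 3 replicates left out -0.0394 to 0.0212, with 0.0124 without replicate 3). The number and nt settings without scaling, other than the number in the gene tests, were chosen after seeing the data. The causes were not tested.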

Other observations

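Clusters on the strand opposite to a histone gene, outside protein-coding genes, were few: SCAF4 IP lists held 2, 5 and 6, SCAF8 IP lists 0, 0 and 2, control IP lists 1, 0 and 1, SCAF4 inputs 1, 1 and 1, SCAF8 inputs 0, 0 and 0, and parental inputs 0, 1 and 1. All of them lay opposite H2AC18 (10), H3C14 (6), H2AC19 (4) and H3C15 (2), whose mRNAs have no 30-nt word found once in the genome.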
